A study of Mus musculus with 96 samples.

Results

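The 55 genes described here are DNA repair and checkpoint genes, taken by symbol from the expression table of single EL4 cells, and all 55 were among its 24057 genes. They were grouped by pathway into 13 genes of homologous recombination, 5 of the damage checkpoint, 7 of the Fanconi pathway, 4 of mismatch repair, 10 of base excision repair, 10 of nucleotide excision repair, 5 of end joining and 1 of post-replication repair. EL4 is a lymphoma line of the T lineage from a C57BL/6 mouse, C57BL/6N in the methods of the study. Cells had been infected with viral particles carrying a short hairpin RNA against luciferase (shLuc, the WT group, whose cells therefore carry a hairpin and a GFP marker too) or against Ctcf (shCTCF, the CTCF-KD group), and GFP-positive cells were sorted to check the knockdown. A WT and a CTCF-KD culture came from an initial experiment (shLuc #1 and shCTCF #1, experiment 1) and 1 of each from a second knockdown (shLuc #2 and shCTCF #2, experiment 2), with 24 cells sequenced per culture, chosen by the authors for quality. Each culture was captured on its own fluidic circuit, so within an experiment the culture, its circuit and the condition cannot be told apart, and the sources do not say which of the 2 hairpins against Ctcf each CTCF-KD culture received. The question was how the levels of these genes and their cell-to-cell variation differed between CTCF-KD and WT cells.

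Cells are exposed to base damage, bulky adducts, mismatches and breaks, and a separate set of proteins handles each. Base excision repair cuts out single damaged bases, nucleotide excision repair removes bulky lesions, and mismatch repair corrects replication errors. Breaks are rejoined by end joining or copied from the sister chromatid by homologous recombination, the Fanconi proteins unhook crosslinks between strands, and checkpoint kinases halt the cycle meanwhile. T cells and their precursors also use end joining to assemble antigen receptor genes. Many genes of recombination, the Fanconi pathway and the checkpoint are known to be expressed most in S phase and G2, so their levels follow how many cells of a culture are cycling.

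After 1 shLuc #2 cell with 81 genes was left out, 47 WT and 48 CTCF-KD cells remained. Medians per cell were 131098 to 247586 recovered reads, lowest in shCTCF #2, and 4635 to 6172.5 genes detected, higher in both CTCF-KD cultures. Ctcf averaged 60.3, 37.1, 15.96 and 44.9 TPM (a transcript abundance that takes gene length into account and sums to the same total in every cell) in shLuc #1, shLuc #2, shCTCF #1 and the culture labelled shCTCF #2. It was thus lower in shCTCF #1 than in its control and not lower in the culture labelled shCTCF #2, and every direction given for experiment 2 rests on that label. The methods of the study state that populations with efficient knockdown by RT-qPCR and Western blot were taken for sequencing (Ctcf in these cells over both experiments: log2 change -0.79, exact permutation test, two-sided p = 0.667, where 2 cultures against 2 cannot go below 0.333). T cell markers summed to 7024 to 9062 TPM, and 10 of 10 were detected in each culture. Of 5 B cell, 5 myeloid and 5 fibroblast markers, 1, 2 and 2 had any reads, with a summed level of at most 4.13 TPM in any culture, and the 3 erythroid markers in the table were at 0.

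**Figure D1:**
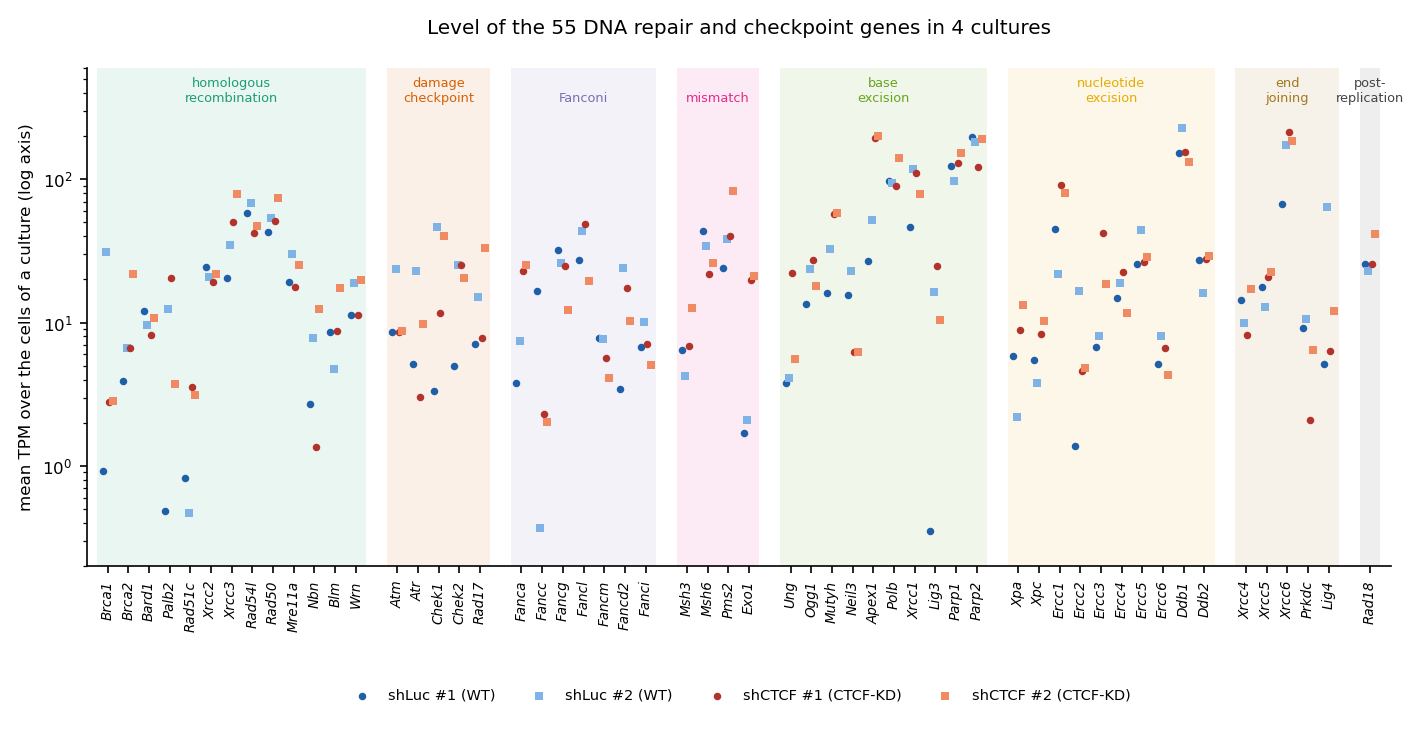
Mean TPM of each of the 55 genes in the 4 cultures, on a log axis, with the genes grouped by pathway. Each point is the mean over the 23 or 24 cells of 1 culture, WT in shades of blue and CTCF-KD in shades of red, with circles for experiment 1 and squares for experiment 2. The levels spanned from about 2 TPM for Rad51c to over 100 TPM for Parp2, Ddb1, Xrcc6, Parp1, Apex1 and Polb, and WT and CTCF-KD points were intermingled for most genes.

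The repair genes were expressed at levels typical of the table. The median of their mean TPM over the 4 cultures was 17.04, against 17.2 for the 11980 genes tested. Parp2 (173 TPM), Ddb1 (167 TPM), Xrcc6 (160 TPM), Parp1 (126 TPM), Apex1 (118 TPM) and Polb (105 TPM) had the highest means, and Rad51c (1.98 TPM) the lowest. These 6 genes encode the 2 main poly(ADP-ribose) polymerases, a damage-recognition subunit, a break-binding subunit, the abasic-site endonuclease and the repair polymerase. Over all cells a repair gene held from 69 to 7703 recovered reads (median 719), and for 24 of the 55 a single cell gave over 50% of the summed TPM of at least 1 culture. In shLuc #1, 39 of 55 genes had a median cell at 0, in shLuc #2 41, in shCTCF #1 15 and in the culture labelled shCTCF #2 24. Most WT values below are therefore means over a few cells with reads and many without.

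Cultures were compared on the log2(mean TPM + 1) scale, where changes of low genes are understated. Replicate cultures differed widely. Between the 2 WT cultures the median absolute difference of the 55 genes was 0.64 (log2 scale), and 16 genes lay 1 or more apart. Between the 2 CTCF-KD cultures it was 0.51, with 12 genes 1 or more apart. Between CTCF-KD and WT of the same experiment it was 0.65 in experiment 1 and 0.81 in experiment 2, with 20 and 25 genes 1 or more apart. Differences between conditions were thus about as large as those between the WT cultures in experiment 1 and larger in experiment 2. Over all genes tested the corresponding medians were 0.73, 0.65, 0.64 and 0.69, and 38.1%, 32.1%, 32.7% and 36.1% of genes lay 1 or more apart.

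No repair gene passed the test of expression. At an adjusted p under 0.05 (limma on the 4 culture values, Benjamini-Hochberg adjustment over 11980 genes), 0 genes of the 55 were higher and 0 lower, as for the whole table (0% higher and 0% lower). The smallest adjusted p of a repair gene was 0.585. At an unadjusted p under 0.05, 4 repair genes were higher (Apex1, Exo1, Ercc1 and Fanca) and 0 lower, against 574 higher and 338 lower in the table. With the experiment as a block 7 were higher and 0 lower at that level, against 918 and 613 in the table.

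Both CTCF-KD cultures lay above the WT pair for 20 of the 55 genes, where 19.9% of all genes tested did so, and below both for 6, where 16.9% did. The other 29 overlapped. Within experiments, 22 genes were higher in CTCF-KD in both, 9 lower in both and 24 opposite (43.6%, against 41.04% of all genes). The median change of the 55 genes was 0.33 on the log2 scale, against 0.04 for all genes tested, and it was 0.24 in experiment 1 and 0.08 in experiment 2. It depended on single cultures, since without shLuc #1 it was -0.03, and without the culture labelled shCTCF #2 it was 0.09. Over all genes the medians in these settings were -0.04 and -0.05. When log2(TPM + 1) was averaged over cells, it was 0.71 against 0.23 for all genes, and 30 genes lay above and 2 below, where 36.2% and 10.1% of all genes did.

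On the size of the change, 7 genes were higher by 1 or more on the log2 scale in both experiments, namely Exo1, Apex1, Fanca, Ercc3, Ercc1, Rad51c and Xrcc3 (6.22% of all genes tested were), and 1 gene, Neil3, was lower by as much in both (4.21% of all genes). They came from 5 of the 8 pathways. None of the 8 passed the adjusted threshold.

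**Figure D2:**
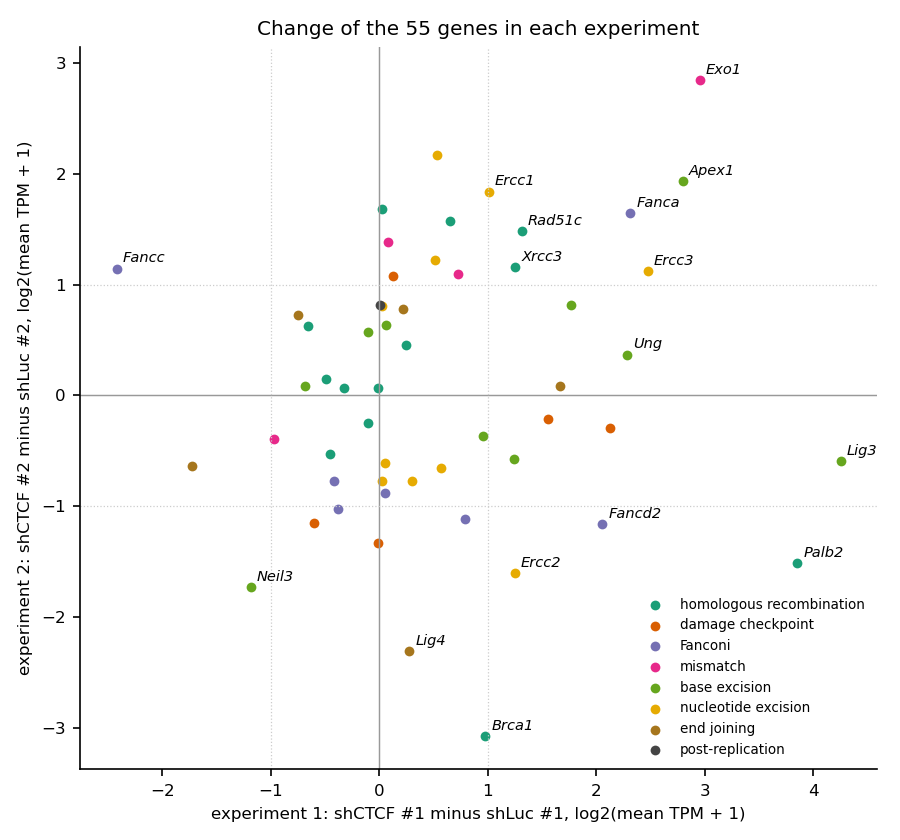
Change of each of the 55 genes on the log2(mean TPM + 1) scale, experiment 1 (shCTCF #1 minus shLuc #1) on the x axis and experiment 2 (the culture labelled shCTCF #2 minus shLuc #2) on the y axis, coloured by pathway. Dotted lines mark changes of 1. Exo1 and Apex1 lay farthest out in the quadrant where both experiments were higher, and Neil3 farthest in the quadrant where both were lower, while Palb2, Fancd2 and Ercc2 were higher in experiment 1 and lower in experiment 2 and Fancc the reverse.

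The promoters of the genes that differed in the same direction in both experiments were read from RefSeq (GRCm38.p6), which gave a window for 44 of the 55 genes, but none for Exo1 or Ercc3. The 250 bases before the start were searched on both strands. Some genes had more than 1 window, and the 44 genes had 49. The CCAAT box (CCAAT) was found in 23 of the 49 windows (46.9%, in 21 genes), where 33.8% of all windows hold it. The GC box (GGGCGG) was found in 30 (61.2%, in 28 genes), where 32.7% do. The E-box (CACGTG) was found in 6 of the 49 windows (6.02% of all windows), an E2F-type element (TTTCCCGC) in 5 (0.895%) and the CTCF core motif in 0 (0.508%). The shares of all windows are over 32851 windows, not only those of genes tested in these cells. Shares over the genes tested were not computed, so the differences cannot be read as a trait of repair genes. A match is a description of the letters and not a bound site. The windows printed are those of Apex1, Fanca and Xrcc3, higher in both experiments, and Neil3, lower in both, 5' to 3' on the strand of the gene and ending at the base before the start, with matches of these motifs in capitals. For Apex1 only the stretch free of exons of the neighbouring gene Osgep is given. They lie at chr14:50924894-50924948 (plus strand), chr8:123318577-123318826, chr12:111813880-111814129 and chr8:53639066-53639315 (minus strand).
Apex1: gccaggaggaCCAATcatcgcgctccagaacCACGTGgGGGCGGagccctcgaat
Fanca: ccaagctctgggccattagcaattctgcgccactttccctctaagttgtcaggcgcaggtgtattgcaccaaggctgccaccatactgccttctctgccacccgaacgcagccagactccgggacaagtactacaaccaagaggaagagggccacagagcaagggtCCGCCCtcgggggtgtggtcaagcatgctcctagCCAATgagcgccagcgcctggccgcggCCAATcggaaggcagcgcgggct
Xrcc3: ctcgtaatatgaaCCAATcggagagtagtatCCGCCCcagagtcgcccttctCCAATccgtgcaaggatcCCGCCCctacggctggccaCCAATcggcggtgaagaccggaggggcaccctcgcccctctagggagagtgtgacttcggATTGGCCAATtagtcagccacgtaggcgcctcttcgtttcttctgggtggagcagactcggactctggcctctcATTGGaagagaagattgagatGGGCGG
Neil3: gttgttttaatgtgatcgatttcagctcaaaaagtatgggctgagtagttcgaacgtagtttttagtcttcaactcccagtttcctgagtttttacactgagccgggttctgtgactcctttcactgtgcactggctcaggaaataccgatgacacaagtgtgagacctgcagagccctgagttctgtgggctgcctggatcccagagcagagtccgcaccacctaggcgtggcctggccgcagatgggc

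Apex1 has a CCAAT box, an E-box and a GC box within its last 55 bases, starting at -45, -24 and -17 from the start. Fanca has 2 CCAAT boxes and 1 GC box, and Xrcc3 6 CCAAT boxes, of which 2 adjoin on opposite strands, and 3 GC boxes. Neil3 has 0 of the motifs searched in this window.

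Base excision repair held the gene with the smallest unadjusted p of the set. Apex1 (chromosome 14, 50924968 to 50927139 on the plus strand; all gene coordinates are from GENCODE M21 on GRCm38) encodes the endonuclease that cuts DNA at abasic sites. It averaged 26.9 TPM in shLuc #1, 51.9 TPM in shLuc #2, 193 TPM in shCTCF #1 and 200.8 TPM in the culture labelled shCTCF #2. The 2 groups did not overlap. The median cell was at 0 in both WT cultures and at 140 and 156 TPM in shCTCF #1 and labelled shCTCF #2, and the highest cells were at 321, 454, 605 and 1137 TPM in the same order. Reads of Apex1 were found in 7 of 24 shLuc #1 cells (29.2%, exact 95% interval 12.6 to 51.1%), 8 of 23 shLuc #2 cells (34.8%, 16.4 to 57.3%) and 21 of 24 cells of each CTCF-KD culture (87.5%, 67.6 to 97.3%). These intervals cover counting error only. Its log2 change was 2.37 (standard error, SE, 0.45, limma adjusted p = 0.585), 2.80 in experiment 1 and 1.93 in experiment 2. When log2(TPM + 1) was averaged over cells instead, which gives less weight to the highest cells, it was the 1 repair gene called, with a difference of 4.47 and an adjusted p of 0.0468 from limma, where 0.367% of all genes tested were called higher.

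The gene next to Apex1 needs a check. In GENCODE, exons of Pip4p1 on the opposite strand overlap Apex1, so that 70.8% of the exon bases of Apex1 are shared. In the RefSeq release read here, Apex1 (50924949 to 50927188) and Pip4p1 (50927215 to 50931010) do not overlap. The authors counted RefSeq genes too, but their release may have been another. Pip4p1, in the table under its older symbol Tmem55b, averaged 23.97, 7.01, 10.4 and 0.385 TPM in shLuc #1, shLuc #2, shCTCF #1 and labelled shCTCF #2, so it was lower in CTCF-KD in both experiments while Apex1 was higher. Whether reads of 1 of these genes were counted for the other was not tested.

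The glycosylases, which remove the damaged base before Apex1 acts, had no shared direction. Neil3 (chromosome 8, 53586867 to 53639065, minus strand), a glycosylase for oxidised bases known from proliferating cells, averaged 15.5 and 22.97 TPM in shLuc #1 and shLuc #2 against 6.27 and 6.22 TPM in shCTCF #1 and labelled shCTCF #2. Both CTCF-KD values lay below both WT values. Its log2 change was -1.46 (SE 0.79, limma adjusted p = 0.739), on 115, 152, 42 and 20 reads in 7, 8, 8 and 3 cells. The share of cells with reads was thus not lower in experiment 1 (29.2% in shLuc #1, 33.3% in shCTCF #1). A single cell gave over 50% of the level in shLuc #1 (67.6%), shCTCF #1 (53.2%) and labelled shCTCF #2 (77.8%). Without the highest cell of each culture, the change of Neil3 was -1.53. Mutyh, which removes adenine opposite an oxidised guanine, was at 16.1, 32.7, 56.9 and 58.2 TPM in the order shLuc #1, shLuc #2, shCTCF #1 and labelled shCTCF #2, with reads in 1, 5, 14 and 8 cells. Ung, the uracil glycosylase that also acts in antibody diversification in B cells, was at 3.79, 4.09, 22.3 and 5.57 TPM. Both genes had their CTCF-KD cultures above the WT cultures, and Ogg1, for oxidised guanine, had overlapping cultures (13.6, 23.6, 27.2 and 18.03 TPM).

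Among the later steps of base excision, Parp2 (chromosome 14, 50807841 to 50821301, plus strand), a polymerase of ADP-ribose that senses breaks, had the highest level of the pathway, at 197, 181, 122 and 192 TPM. Its cultures overlapped, with a log2 change of -0.30 (SE 0.37, limma adjusted p = 0.881). Its larger relative Parp1 was at 124, 97.7, 129 and 152 TPM, and both CTCF-KD cultures lay above both WT cultures by a small margin. Lig3 (chromosome 11, 82781108 to 82804274, plus strand), the ligase that seals the nick, was at 0.350 and 16.3 TPM in shLuc #1 and shLuc #2 and 24.8 and 10.5 TPM in shCTCF #1 and labelled shCTCF #2. The low value of shLuc #1 set its log2 change of 1.83 (SE 1.35, limma adjusted p = 0.788), which was 4.25 in experiment 1 and -0.59 in experiment 2. Its partner Xrcc1, the scaffold of the pathway, was at 46.1, 117, 111 and 78.4 TPM, and Polb, the gap-filling polymerase, at 97.1, 94.2, 90.4 and 140 TPM. Neither separated the conditions. Lig3 shares 27.9% of its exon bases with Rffl on the opposite strand, and the sources do not say whether counting used the strand.

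Of the 10 base excision genes, 4 had both CTCF-KD cultures above the WT cultures, 1 below, and 5 overlapped. Of all genes, 19.9% lay above and 16.9% below. The median change of the pathway was 0.34, against 0.04 for all genes tested.

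In mismatch repair, Exo1 (chromosome 1, 175880581 to 175913489, plus strand), the exonuclease that removes the mismatched strand and also resects breaks, had the largest change of the 55 genes. It averaged 1.69 TPM in shLuc #1, 2.09 TPM in shLuc #2, 19.8 TPM in shCTCF #1 and 21.2 TPM in the culture labelled shCTCF #2. The WT cultures and the CTCF-KD cultures were each close together and far apart from each other. Reads were found in 3 of 24, 5 of 23, 14 of 24 and 15 of 24 cells, with 27, 25, 327 and 186 reads in all. Its log2 change was 2.90 (SE 0.85, limma adjusted p = 0.585), 2.95 and 2.85 in the 2 experiments. Without the highest cell of each culture, it was 3.18. Pms2 (chromosome 5, 143909964 to 143933968, plus strand), which nicks the strand to be corrected, had the highest level of the pathway, at 23.9, 38.1, 40.2 and 82.8 TPM. Both CTCF-KD cultures lay above the WT pair, by a log2 change of 0.91 (SE 0.57, limma adjusted p = 0.774). The mismatch-recognition proteins differed in direction. Msh3 was at 6.45, 4.25, 6.86 and 12.7 TPM and Msh6 at 43.7, 34.3, 21.8 and 25.95 TPM, so Msh6 lay lower in both CTCF-KD cultures. With 3 genes above and 1 below, 0 of the 4 mismatch genes overlapped (19.9% and 16.9% of all genes lay above and below). Msh3 lay above in shCTCF #1 by a small margin over shLuc #1.

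Of the 10 nucleotide excision genes, 5 lay above in both CTCF-KD cultures and 0 below, where 19.9% and 16.9% of all genes did. Ercc1 (chromosome 7, 19344778 to 19356524, plus strand), the partner of the nuclease Ercc4 that cuts on the 5' side of a lesion, averaged 45.1 and 21.9 TPM in shLuc #1 and shLuc #2 and 91.6 and 80.9 TPM in shCTCF #1 and labelled shCTCF #2. The groups did not overlap, with reads in 10, 7, 20 and 17 cells. Its log2 change was 1.42 (SE 0.52, limma adjusted p = 0.610). Ercc4 itself was at 14.9, 18.97, 22.6 and 11.7 TPM and overlapped. Ercc1 shares 106 exon bases with Cd3eap on the opposite strand, which was at 30.8, 24.3, 40.4 and 139 TPM.

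Ercc3, the helicase of the transcription factor TFIIH that opens the DNA around a lesion, averaged 6.80, 8.06, 42.4 and 18.7 TPM in shLuc #1, shLuc #2, shCTCF #1 and labelled shCTCF #2. Both CTCF-KD cultures were above both WT cultures, and the 2 CTCF-KD cultures were far apart. Its log2 change was 1.80 (SE 0.78, limma adjusted p = 0.656). The second helicase of TFIIH, Ercc2, was at 1.37, 16.7, 4.63 and 4.82 TPM, with a change of 1.25 in experiment 1 and -1.60 in experiment 2. The damage sensor Xpc (chromosome 6, 91489305 to 91515888, minus strand) was at 5.50, 3.82, 8.28 and 10.2 TPM, with both CTCF-KD cultures above the WT cultures and a log2 change of 0.87 (SE 0.86, limma adjusted p = 0.849). Xpa, which verifies the lesion, was also above in both (5.88, 2.19, 8.94 and 13.3 TPM) but on 69 reads in all cells. Ddb1 (chromosome 19, 10605327 to 10629819, plus strand), the adaptor of the ubiquitin ligase that recognises ultraviolet damage, was the highest of the pathway at 153, 227, 156 and 133 TPM. It was detected in 24, 21, 23 and 23 cells, and its log2 change was -0.37 (SE 0.36, limma adjusted p = 0.848) with overlapping cultures. Ddb2, its damage-binding partner, was at 27.3, 16.2, 27.8 and 29.1 TPM, Ercc5, the nuclease on the other side of the lesion, at 25.5, 44.4, 26.4 and 28.7 TPM, and Ercc6, which starts repair at stalled transcription, at 5.18, 8.09, 6.60 and 4.33 TPM. Of these only Ddb2 had both CTCF-KD cultures above the WT cultures, by a margin of under 1 TPM over shLuc #1, and it shares 26.7% of its exon bases with Acp2. The median change of the pathway was 0.19, and 0.47 when log2(TPM + 1) was averaged over cells.

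The 13 homologous recombination genes had a median change of 0.03, with 4 above in both CTCF-KD cultures, 1 below and 8 overlapping (19.9% and 16.9% of all genes lay above and below). Averaged over cells as log2(TPM + 1), the median was 0.41. Rad50 (chromosome 11, 53649519 to 53707319, minus strand), the core of the complex that tethers broken ends, had the highest level, at 43.1, 53.9, 51.2 and 74.2 TPM. Its cultures overlapped, and the log2 change was 0.35 (SE 0.46, limma adjusted p = 0.886). It was detected in 20 of 24 and 21 of 23 WT cells and in 24 of 24 cells of each CTCF-KD culture. Its partners Mre11a, the nuclease of the complex, and Nbn were at 19.1, 29.98, 17.7 and 25.1 TPM and at 2.70, 7.78, 1.35 and 12.5 TPM, and neither separated the conditions.

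Xrcc3 and Rad51c, subunits of complexes that assist strand exchange, were higher by 1 or more in both experiments. Xrcc3 (chromosome 12, 111803192 to 111813873, minus strand) averaged 20.5, 34.5, 50.2 and 78.5 TPM in shLuc #1, shLuc #2, shCTCF #1 and labelled shCTCF #2, with a log2 change of 1.21 (SE 0.54, limma adjusted p = 0.665). All of the shLuc #1 level came from 1 cell at 492 TPM, and reads were found in 1, 4, 8 and 11 cells. Rad51c (chromosome 11, 87376645 to 87404954, minus strand) was at 0.826, 0.467, 3.54 and 3.10 TPM with 6, 4, 43 and 20 reads in 1, 1, 3 and 2 cells, and its log2 change of 1.398 (SE 0.69, limma adjusted p = 0.696) rested on those few cells. Xrcc2, which acts in a related complex, was level across cultures (24.3, 20.9, 19.2 and 21.9 TPM).

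The breast cancer genes and their partners showed no shared direction. Brca1 was at 0.924, 31.2, 2.79 and 2.82 TPM, the shLuc #2 value standing over the other 3. Brca2 was at 3.91, 6.66, 6.70 and 21.8 TPM, with reads in 6, 8, 21 and 13 cells and the last value carried for 75.3% by 1 cell. Palb2, which joins Brca1 to Brca2, was at 0.485, 12.5, 20.4 and 3.73 TPM, and its change was 3.85 in experiment 1 and -1.52 in experiment 2. Bard1, the partner of Brca1, was at 11.999, 9.61, 8.22 and 10.8 TPM. Rad54l, a motor protein of strand exchange, was the gene of the pathway with both CTCF-KD cultures below both WT cultures, at 58.3, 67.9, 42.3 and 46.9 TPM. Of the helicases, Blm was at 8.55, 4.73, 8.73 and 17.4 TPM and Wrn at 11.4, 18.96, 11.3 and 19.9 TPM.

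In the Fanconi pathway, Fanca (chromosome 8, 123268300 to 123318576, minus strand), a subunit of the ligase that marks crosslinks, averaged 3.79, 7.43, 22.9 and 25.4 TPM in shLuc #1, shLuc #2, shCTCF #1 and labelled shCTCF #2. The groups did not overlap, and reads were found in 8, 9, 19 and 14 cells. A single cell gave 51.7% of the level in the culture labelled shCTCF #2. Its log2 change was 1.98 (SE 0.80, limma adjusted p = 0.638). Zfp276, which shares 552 exon bases with Fanca on the opposite strand, was at 3.94, 12.3, 8.38 and 8.15 TPM. The catalytic subunit of that ligase, Fancl (chromosome 11, 26386135 to 26471876, plus strand), had the highest level of the pathway and overlapping cultures, at 27.6, 43.4, 48.5 and 19.4 TPM (log2 change -0.16, SE 0.65, limma adjusted p = 0.974). Fancg and Fancm, other subunits of the core complex, lay lower in both CTCF-KD cultures, at 32.3, 26.04, 24.6 and 12.3 TPM and at 7.83, 7.70, 5.62 and 4.09 TPM. Fancd2 and Fanci, the pair that the ligase modifies, were at 3.44, 24.2, 17.4 and 10.3 TPM and at 6.78, 10.2, 7.08 and 5.07 TPM. Fancc was at 16.6, 0.370, 2.29 and 2.03 TPM. With 1 gene above, 2 below and 4 overlapping, the median change of the 7 genes was -0.41, but 0.01 when log2(TPM + 1) was averaged over cells. Of all genes, 19.9% lay above and 16.9% below.

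All 5 checkpoint genes overlapped, where 19.9% of all genes lay above and 16.9% below. The checkpoint kinase Chek1 (chromosome 9, 36708482 to 36727065, minus strand), which acts at stalled replication forks, was the highest of them, at 3.31 and 46.8 TPM in shLuc #1 and shLuc #2 and 11.6 and 40.3 TPM in shCTCF #1 and labelled shCTCF #2. The cultures fell by experiment rather than by condition, and the log2 change was 0.67 (SE 1.26, limma adjusted p = 0.933). Chek2, the kinase downstream of Atm, was at 4.98, 25.3, 25.1 and 20.4 TPM. The apical kinases Atm and Atr were at 8.61, 23.5, 8.54 and 8.71 TPM and at 5.11, 23.03, 3.03 and 9.80 TPM, and in both the shLuc #2 culture was the highest. Rad17, which loads the checkpoint clamp, was at 7.09, 15.1, 7.82 and 33.0038 TPM.

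For end joining, Xrcc6 (chromosome 15, 81987835 to 82040085, plus strand), a subunit of the Ku ring that binds broken ends, had the highest level, at 67.3, 174, 215 and 184 TPM. Both CTCF-KD cultures lay above the WT pair, but labelled shCTCF #2 and shLuc #2 differed by only 0.08 on the log2 scale (log2 change over both experiments 0.87, SE 0.50, limma adjusted p = 0.752). The other Ku subunit, Xrcc5, was at 17.7, 12.8, 20.9 and 22.7 TPM, also above in both. Prkdc, the kinase that Ku recruits, lay below in both, at 9.20, 10.6, 2.09 and 6.46 TPM. The ligase Lig4 was at 5.10, 63.7, 6.38 and 12.1 TPM. Its cofactor Xrcc4 (chromosome 13, 89774027 to 90089608, minus strand) was at 14.3, 9.98, 8.15 and 17.2 TPM, with a log2 change of -0.01 (SE 0.82, limma adjusted p = 1.00), and both overlapped. Rad18 (chromosome 6, 112619850 to 112696686, minus strand), the ligase that starts bypass of lesions at forks, was at 25.7, 22.97, 25.8 and 41.2 TPM, with both CTCF-KD cultures above the WT cultures, shCTCF #1 by a small margin (log2 change 0.41, SE 0.57, limma adjusted p = 0.897).

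More repair genes were detected per cell in the CTCF-KD cultures, as were more genes in all. A median of 19.5 of the 55 genes had reads in a shLuc #1 cell (range 9 to 37), 19 in a shLuc #2 cell (7 to 41), 32.5 in a shCTCF #1 cell (14 to 41) and 29 in a cell labelled shCTCF #2 (13 to 43). After thinning to 80000 reads per cell the medians were 17, 19, 28.5 and 28. In all, 40 of the 55 genes had reads in a larger share of cells in CTCF-KD in both experiments, as did 45.9% of all genes tested, and 2 in a smaller share in both, as did 9.22% of all genes. With thinned cells the first count was 35, and 44.4% of all genes.

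Within cultures, the number of repair genes in a cell followed the number of all genes (Pearson's r 0.81 to 0.88) and not the number of reads (r -0.30 to -0.10). These are descriptions over the cells of 1 culture, which share a circuit and a library preparation. As a share of all genes detected, the repair genes made up 0.423% and 0.457% in shLuc #1 and shLuc #2 and 0.535% and 0.532% in shCTCF #1 and labelled shCTCF #2. Their summed level averaged 1379 TPM (SD 475 over cells), 1934 TPM (SD 776), 1974 TPM (SD 385) and 2152 TPM (SD 809.7) in the same order, so the 2 WT cultures were about as far apart as the conditions. More RNA of a gene per cell and more cells in the phase that expresses it cannot be told apart in a culture mean.

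**Figure D3:**
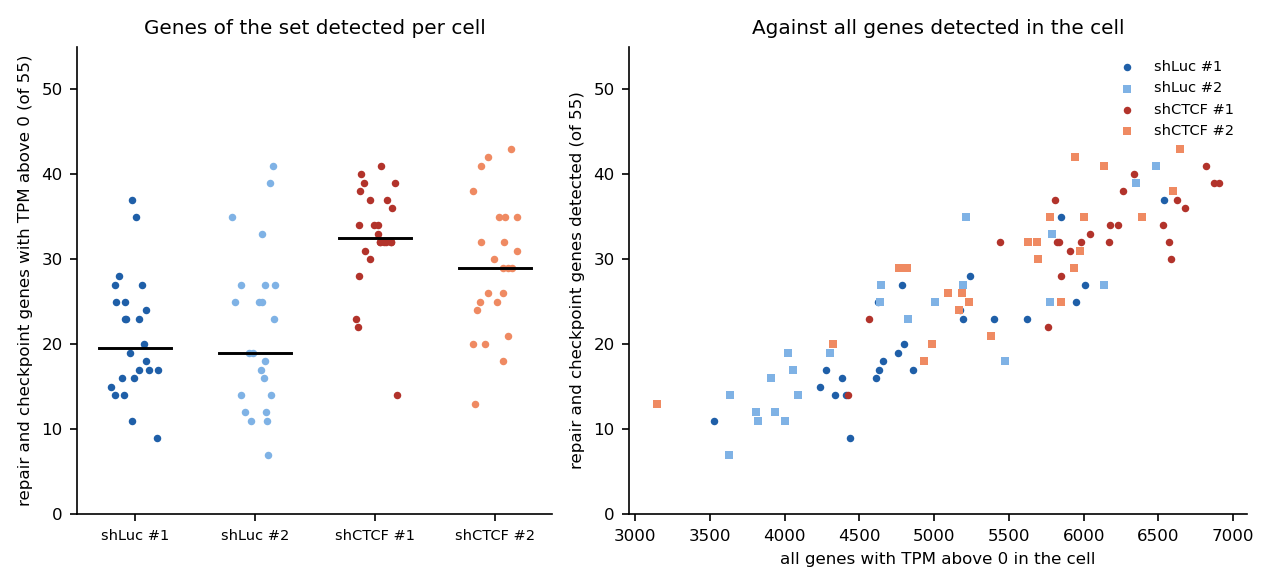
Repair and checkpoint genes with TPM above 0 in each of the 95 cells, by culture (left, with a bar at the median) and against all genes with TPM above 0 in the same cell (right). The medians were 19.5, 19, 32.5 and 29 genes, and cells of all 4 cultures lay along 1 band in which cells with more genes also had more repair genes.

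When each cell was taken as a unit, which overstates the replication, 9 repair genes were called higher (Apex1, Exo1, Ercc1, Fanca, Lig3, Parp1, Ercc3, Mutyh and Rad17) and 0 lower at an adjusted p under 0.05 from limma, where 10.7% and 1.03% of all genes tested were called. Cells of 1 culture are not replicates, so these counts describe the 4 cultures.

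Cell-to-cell variation was measured as the coefficient of variation (CV), the SD divided by the mean, both taken on log2(TPM + 1) across cells of 1 condition. Of the 55 genes, 48 had a mean log2(TPM + 1) above 1 and entered, and Brca1, Rad51c, Nbn, Fancc, Ung, Xpa and Ercc2 did not. A CV was called lowered or raised when its difference was beyond 1 SD of the average difference over 7843 genes. The CV was lowered in CTCF-KD for 14 of 48 repair genes, where 11.3% of all genes were, and raised for 2, where 7.68% were. The filter was on the mean over all cells, and 7 of the 14 lowered genes (Palb2, Xrcc3, Exo1, Mutyh, Lig3, Xpc and Ercc3) had a WT mean of 1 or less and entered through CTCF-KD, while Neil3, raised, entered through WT. At such means the CV depends on the mean. With a mean above 1 required in each condition, 10 of 39 genes were lowered and 1 raised, where 14.6% and 12.03% of all genes were. In 46 of the 48 the CV was lower in CTCF-KD (95.8%, against 81.5% of all genes).

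The 14 genes were Brca2, Palb2, Xrcc3, Chek1, Fanca, Exo1, Ogg1, Mutyh, Apex1, Lig3, Xpc, Ercc1, Ercc3 and Xrcc4, drawn from 7 of the 8 pathways, and the 2 raised were Fancg and Neil3. The same call was made in each experiment taken alone for 7 of them. The CV of Xrcc3 was 2.95 over WT and 1.39 over CTCF-KD cells, that of Lig3 2.56 and 1.07, that of Exo1 2.43 and 0.973, and that of Xpc 2.502 and 1.21. For Apex1 it was 1.63 and 0.443, for Ercc3 2.24 and 1.08, and for Xrcc4 2.15 and 1.03. In all 14 genes the mean log2(TPM + 1), the divisor of the CV, was higher in CTCF-KD, and in 10 the SD was higher too. For Xrcc4 that mean was 1.06 in WT and 2.21 in CTCF-KD with an SD of 2.28 in each, and reads were found in 5, 4, 12 and 13 cells.

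**Figure D4:**
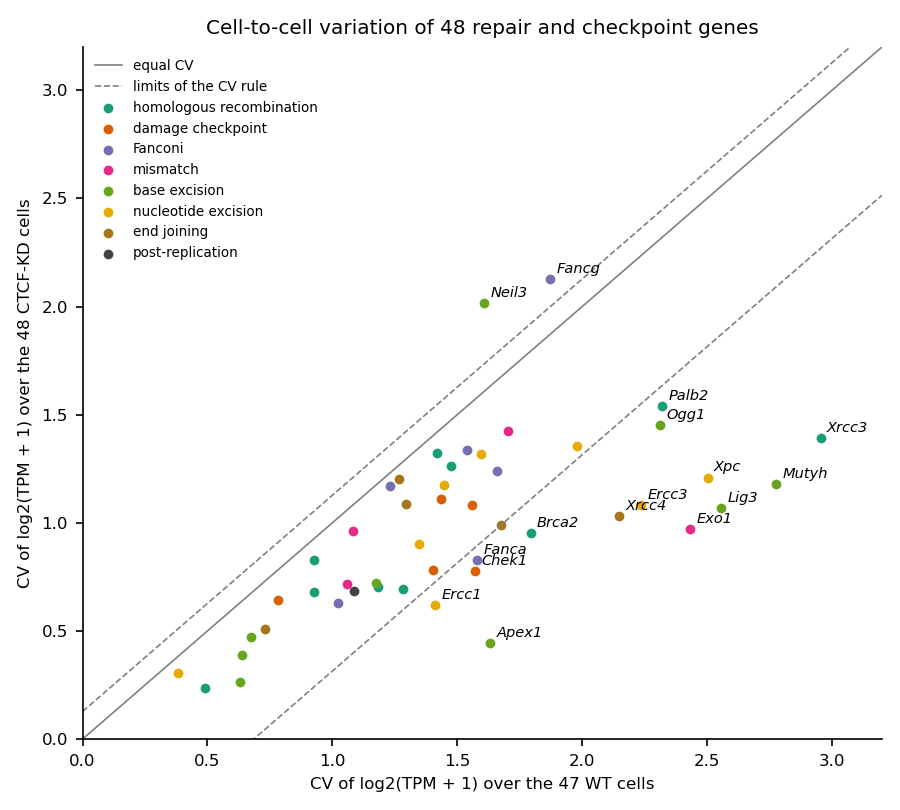
CV of log2(TPM + 1) of 48 repair and checkpoint genes over the WT cells (x axis) and the CTCF-KD cells (y axis), coloured by pathway. The solid line marks equal CV and the dashed lines the limits beyond which a gene was called, and 14 genes fell below the lower limit and 2, Fancg and Neil3, above the upper.

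All 14 genes with a lowered CV also had reads in a larger share of CTCF-KD cells. The median share of cells with reads over the 48 genes was 38.3% for WT and 60.4% for CTCF-KD cells (55.3% and 68.8% over all genes). Among cells with reads only, the SD was lower in CTCF-KD for 37 of 48 repair genes (77.1%, against 80.8% of all genes), and the level was lower for 29 (60.4%, against 54.2%). When the CV was set against the CV expected from the mean level in each condition, 6 repair genes were lowered and 2 raised (10.98% and 9.35% of all genes). With the SD in place of the CV, 3 were lowered and 11 raised (13.2% and 13.4% of all genes).

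With the CV of each culture as 1 value, limma called 2 repair genes lower at an adjusted p under 0.05, against 4.14% of 7823 genes, and 0 higher, against 0.0639%. At this threshold both were base excision genes. The CV of Apex1 was 1.76 and 1.54 in the WT cultures and 0.440 and 0.457 in the CTCF-KD cultures (difference -1.20, SE 0.20, limma adjusted p = 0.0359). That of Parp1 was 0.631 and 0.641 against 0.270 and 0.257 (difference -0.37, SE 0.08, limma adjusted p = 0.0433). With the experiment as a block, 14 repair genes were lower, 3 of them of base excision, and 0 higher, against 19.9% of all genes lower. Without either CTCF-KD culture limma called 0 lower.

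The repair genes were then set against cell cycle genes within each culture. A score was taken in each cell as the mean log2(TPM + 1) of 28 S phase genes, none of them among the 55, and another of 25 G2/M genes. The median Pearson's r of the 48 repair genes with the S phase score, averaged over the 4 cultures, was 0.228, against 0.085 for all genes, and 27 of 48 had a positive r in all 4 cultures (22.6% of all genes). With the G2/M score the median was 0.213 against 0.079, and 23 of 48 were positive in all 4 (22.1% of all genes). Among only the cells with a value of the gene, the medians were 0.048 and 0.052. In that setting 8 and 5 genes were positive in all 4 cultures, and a gene with under 6 such cells in a culture was not counted. The same was not computed over all genes. These correlations over the 23 or 24 cells of a culture carry no p, since the cells share a circuit and a library preparation. Depth and the number of genes detected differ from cell to cell and are common to all genes of a cell.

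Blm had the highest mean r with the S phase score, at 0.78 and 0.58 in shLuc #1 and shLuc #2 and 0.36 and 0.52 in shCTCF #1 and labelled shCTCF #2. Rad54l (mean 0.51), Chek1 (0.50), Fancl (0.45), Exo1 (0.45) and Xrcc2 (0.43) followed, genes of recombination, the replication checkpoint, crosslink repair and mismatch repair. Xrcc4 (-0.21) and Polb (-0.17), of end joining and base excision, were the 2 with a negative mean. Among cells with a value, Blm had a mean r of 0.28 (lowest -0.10), Rad54l 0.38, Chek1 0.41, Fancl 0.13, Exo1 0.47 and Xrcc2 0.05. With the G2/M score Neil3 was highest, at 0.72, 0.72, 0.34 and 0.30 in the 4 cultures, and Xrcc2 (0.49), Fancl (0.48), Fancd2 (0.48) and Brca2 (0.43) followed. After the number of genes detected per cell was removed by regression, the median r with the S phase score was 0.105 (0.002 for all genes) and with the G2/M score 0.119 (-0.001), and Blm (0.51), Rad54l (0.48), Chek1 (0.47) and, for G2/M, Neil3 (0.52) were again the highest.

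**Figure D5:**
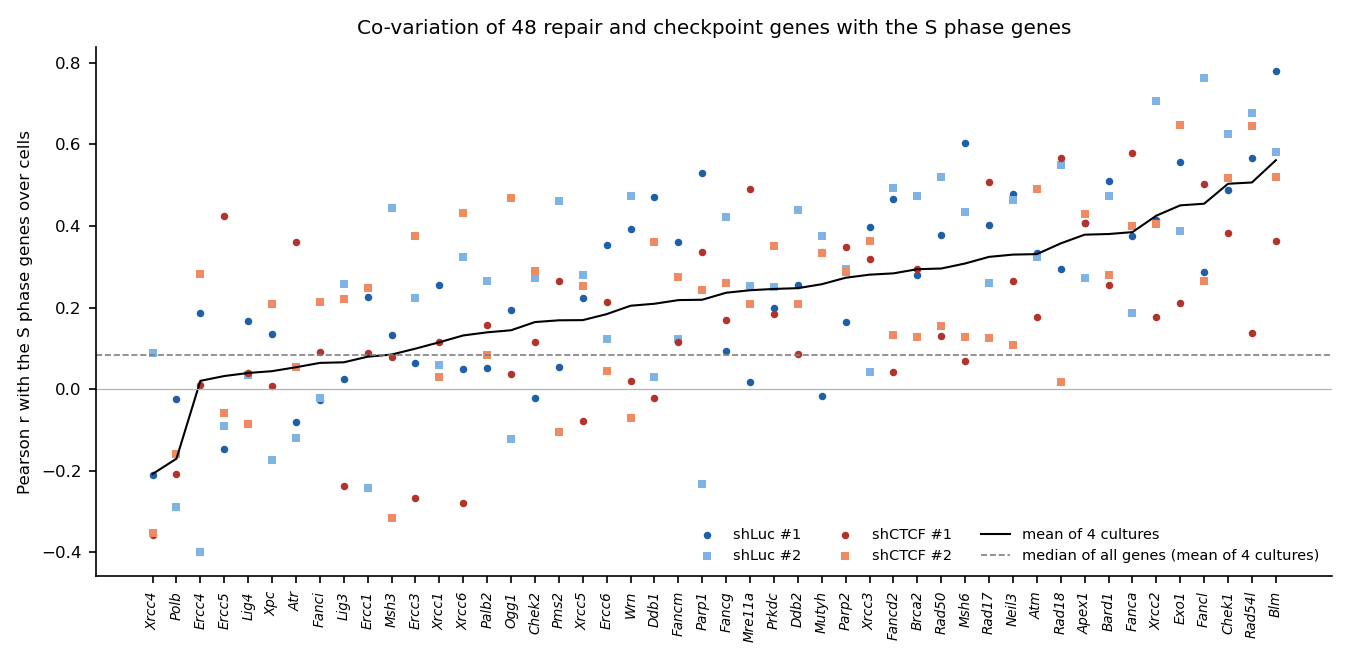
Pearson's r over the cells of each culture between log2(TPM + 1) of each of 48 repair and checkpoint genes and the mean of the S phase genes, ordered by the mean of the 4 cultures (black line). The dashed line is the median over all genes, 0.085, and Blm, Rad54l and Chek1 stood at the upper end with Xrcc4 and Polb at the lower.

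The cell cycle genes themselves differed between the cultures. Of the 30 S phase genes, 11 had both CTCF-KD cultures above the WT cultures and 0 below (median change 0.52), where 19.9% and 16.9% of all genes did. Of the 25 G2/M genes, 0 lay above and 13 below (median change -0.33), but the direction turned when log2(TPM + 1) was averaged over cells (median 0.68). The G2/M score, on that scale, was 3.59 and 3.76 in the WT and 4.91 and 4.22 in the CTCF-KD cultures, and 20 of the 25 genes were detected in more cells of CTCF-KD in both experiments. None of either list passed the adjusted threshold, and their part in the levels of the repair genes was not tested. Of the genes at least 1 higher in both experiments, Exo1 and Fanca had a mean r with the S phase score of 0.45 and 0.39, Apex1 0.38, Xrcc3 0.28, Ercc3 0.10 and Ercc1 0.08.

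Of 82 further repair genes, from the rest of the same pathways, 80 could be tested, and 0 passed the adjusted threshold. Both CTCF-KD cultures lay above the WT pair for 18 and below for 13, and 49 overlapped, with a median change of 0.11 (19.9% and 16.9% of all genes lay above and below). The 2 highest limma statistics were those of Mpg (10.5, 35.8, 115 and 57.7 TPM in shLuc #1, shLuc #2, shCTCF #1 and labelled shCTCF #2), a glycosylase for alkylated bases, and Gtf2h4 (59.4, 48.97, 111 and 120.3 TPM), a TFIIH subunit. The 3 lowest were those of Ube2t (178, 181, 108 and 85.2 TPM), the conjugating enzyme of the Fanconi ligase, Recql5 (14.5, 24.4, 5.49 and 2.65 TPM), a helicase, and Rad54b (6.83, 7.23, 2.24 and 2.34 TPM), a relative of Rad54l. These 5 genes had non-overlapping groups and adjusted p from 0.610 to 0.775 from limma.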

How the data were processed

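Single EL4 cells were captured on the Fluidigm C1 system, where wells with 0 or 2 cells had been left out, and sequenced from SMARTer libraries without molecular identifiers. The authors aligned reads to GRCm38 with STAR, counted uniquely mapped reads on 24057 RefSeq genes with HTSeq, and deposited TPM values, which sum to the same total in each cell. Whether counting used the strand is not given in the sources used here. Cells with 3000 or more genes were kept (95 of 96, 1 left out).

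The TPM values are whole multiples of 1 step per gene and cell, from which reads were recovered (tolerance 0.001, smallest whole numbers, so a lower bound where the reads of a gene share a divisor). These gave the depths and the cells thinned to 80000 reads (94 cells, 1 left out). They entered no count model.

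The culture was the replicate (2 WT and 2 CTCF-KD), so p-values measure the spread between these cultures. Values were log2(mean TPM + 1) with a pseudocount of 1, for 11980 genes that passed log2(TPM + 1) of 1 in 2 or more cells, tested with limma 3.58.1 in R 4.3.3 (trended variance, Benjamini-Hochberg adjustment, threshold 0.05, two-sided). The CV was called beyond 1 SD (0.406) of the mean difference (-0.279), for 7843 genes with a mean log2(TPM + 1) above 1, and tested by culture on 7823 genes. The replicate number is the experiment, which pairs the cultures. Deviations of same-numbered cultures from their group means correlated at 0.18 over the genes kept for expression and 0.27 for the genes kept for CV. Shares of cells carry exact Clopper-Pearson 95% intervals. Scripts were tested on simulated data (Python 3.11.15, numpy 2.4.6, pandas 2.3.3, scipy 1.17.1, matplotlib 3.10.9).

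Genes were named in full when highest of their pathway (8 genes), at least 1 apart in both experiments (8 genes) or with the same CV call in both experiments (7 genes), 19 in all. The 55 genes, the other lists and the cell cycle genes were chosen with earlier results of these data known. The alternative without the highest cell, the thinned detection counts and the CV filter on each condition were chosen after seeing the data. A further repair gene that the naming rule selects is not reported here.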

Additional observations from a re-analysis of the deposited data

Results flagged for a closer look

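The targeted gene and 24 of the 55 repair genes had changes of opposite direction in the 2 experiments (43.6%, against 41.04% of all genes tested), and 4 of the repair genes were 1 or more apart in each. With 1 culture per condition in each experiment, the difference was not tested. For Ctcf, the change in experiment 2 minus that in experiment 1 was 2.12 on the log2 scale, as Ctcf was lower in shCTCF #1 (-1.85) and not in the culture labelled shCTCF #2 (0.27). For Palb2 the difference was -5.37, with changes of 3.85 and -1.52. For Fancd2 it was -3.21, with changes of 2.05 and -1.16. For Ercc2 it was -2.85, with changes of 1.25 and -1.60. Fancc went the other way, with a difference of 3.57 and changes of -2.42 and 1.15. In each of these 4 repair genes, 1 WT culture was under 4 TPM.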

How the results depend on the processing

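With the mean over cells of log2(TPM + 1), 1 repair gene was called higher, 30 lay above and 2 below in both CTCF-KD cultures (36.2% and 10.1% of all genes), and the median change was 0.71. That setting reversed Fancl (0.99), Parp2 (0.86), Ddb1 (0.025) and Xrcc4 (1.15). With cells as units 9 were called, the median was 0.72, and Fancl (0.99), Parp2 (0.86), Ddb1 (0.032) and Xrcc4 (1.15) were reversed. The median change was 0.22 with a pseudocount of 10, 0.21 with cells of 4000 or more genes and 0.55 without the highest cell of each culture. Xrcc4 was reversed with the pseudocount of 10 (0.0095), thinned reads (0.18) and without the highest cell (0.15), where Fancl was too (0.18).

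For the CV, 7 of 23 genes with a mean above 2 were lowered and 0 raised, where 13.6% and 10.3% of all such genes were. With linear TPM 4 were raised (8.94% of all genes), and in experiment 1 alone 1 was (7.35%). With the SD 3 were lowered and 11 raised (13.2% and 13.4%), and against the expected CV 6 were lowered (10.98%). With a mean above 1 in each condition, 1 of 39 was raised (12.03%). With the experiment as a replicate block, the CV by culture was lower for 14 (19.9% of all genes), and 0 adjusted calls of expression changed. The median r was 0.105 (S phase) and 0.119 (G2/M) with genes detected removed, and 0.048 and 0.052 in cells with a value.

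Leaving out 1 culture at a time gave 21 to 33 genes above and 10 to 20 below, since fewer cultures must then be separated, a median change of -0.027 to 0.49, 1 to 2 raised CVs and 0 to 5 lower CVs by culture (5 without shLuc #1, 0 without shCTCF #1 or the culture labelled shCTCF #2). Of all genes tested, 31.3% to 39.2% lay above and 26.6% to 37.9% below in the same settings. Their median change was -0.049 to 0.16. Over these settings, Chek1 ranged from -1.07 (without shLuc #1) to 2.41, with -0.18 without the culture labelled shCTCF #2. Lig3 ranged from -0.010 (without shLuc #1) to 3.67. Fancl ranged from -0.80 to 0.48 (without the culture labelled shCTCF #2), with 0.16 without shLuc #2, and Parp2 from -0.63 to 0.022 (without shCTCF #1). Xrcc4 ranged from -0.50 to 0.48 (without shCTCF #1), with 0.23 without shLuc #1. Over the 19 named genes and 265 alternatives, 238 kept direction and side of the threshold, 20 reversed and 7 passed the threshold. Of these 7, only Apex1 with log2(TPM + 1) averaged over cells passed with cultures as units. The others passed with cells as units, which overstates the replication. With 2 cultures per condition and 69 reads for the rarest gene, small changes were not detectable. Large ones did not pass the main test either, as Exo1 with a log2 change of 2.90 had a limma adjusted p of 0.585. The absence of calls therefore does not show that levels were equal.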
